A study of Rattus norvegicus with 2 samples.

Results

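The genes described here are 9 members of the JAK-STAT signalling pathway: the kinases Jak1, Jak2 and Tyk2, the transcription factors Stat2, Stat3, Stat5a, Stat5b and Stat6, and the feedback inhibitor Socs3. They were taken by name, with earlier results of these data known, out of 25399 genes counted by single-cell RNA-sequencing in 2 libraries of optic nerve cells from 7-day-old rats. The WT library came from Sprague Dawley rats, and the Nuc1 library from rats with a spontaneous insertion in Cryba1, the gene that encodes βA3/A1-crystallin. According to the study's methods the cells came from mixed primary glial cultures, and the methods describe astrocyte cultures from younger pups than the age in the sample labels. Each genotype had 1 library, and the number of animals behind each was not given in the sources used here. No difference between WT and Nuc1 therefore has a replicate check, no test was run, and all intervals below cover counting error only. Genotype and any difference in culture, dissociation or library preparation cannot be told apart.

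In this pathway a cytokine binds a receptor that has no kinase of its own, and JAK kinases bound to the receptor phosphorylate it and the STAT proteins that dock there. Phosphorylated STATs pair, enter the nucleus and switch on target genes, among them the Socs genes and Cish, whose products shut the receptor down again. In astrocytes, STAT3 downstream of gp130, the shared receptor chain of the interleukin-6 family, is known for its part in the reactive state of injured nerve tissue. Transcript counts do not measure phosphorylation or nuclear STAT, and nothing below bears on either.

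STAT dimers bind DNA at sites close to TTCNNNGAA, a motif that reads the same on both strands, and the start regions of the feedback genes Cish and Socs1 carry it. Of 33469 windows of 250 bases upstream of a gene start in the RefSeq table (build GRCr8), 7.67% held the motif at least once and 0.418% at least 2 times. The Cish window held it 4 times, at positions -241, -230, -136 and -119 from the gene start, and only 2 of the 33469 windows held 4 or more. The Socs1 window held it 1 time, at -196. The stretches are shown because Cish and Socs1 are the feedback genes compared with Socs3 below. They lie on the plus strand at chr8:116850719-116850868 for Cish and chr10:5389349-5389408 for Socs1, with the motif in capitals:
Cish: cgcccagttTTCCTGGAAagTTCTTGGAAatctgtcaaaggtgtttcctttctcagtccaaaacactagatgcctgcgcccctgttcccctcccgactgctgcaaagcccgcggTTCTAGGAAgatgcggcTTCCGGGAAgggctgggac
Socs1: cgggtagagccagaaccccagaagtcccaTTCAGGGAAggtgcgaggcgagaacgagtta
Windows were found for 7 of the 9 members (Jak2, Stat2, Stat3, Stat5a, Stat5b, Stat6 and Socs3), and none of the 7 held these letters. Windows of the feedback genes Socs4 and Socs6 held none either. The gene start used for the window lies inside the gene record by 65 bases for Stat2, 154 for Stat3, 226 for Stat5b, 1207 for Socs3 and 6128 for Socs6, so these 5 windows overlap the record and need not hold the promoter. A match is a description of the letters in a window, not a measured binding site.

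The WT library held 2107 barcodes with 34517542 unique molecular identifiers (UMIs), each a tag on a captured transcript, and the Nuc1 library 1929 barcodes with 35794685 UMIs. Only 2 barcode sequences occurred in both. After filtering, 1961 WT and 1780 Nuc1 cells were left, at median depths of 14050 and 16567.5 UMIs, and were clustered together into 10 cell groups. The astrocyte-like group, led by Gfap, Hspb1, Fabp7 and Aqp4, held 106 WT and 349 Nuc1 cells. Its 15 listed astrocyte markers summed to 44481 UMIs per 1000000 UMIs of the group (CPM) in WT and 55769 CPM in Nuc1, and all 15 were detected. Smaller groups carried the markers of motile cilia (15 WT and 105 Nuc1 cells), of the oligodendrocyte lineage (52 and 10) and of macrophages (22 and 22). A group led by Ttr and Gldn (23 and 31) was left without a cell type name. Most cells, 1743 WT and 1263 Nuc1, fell into 5 clusters called collagen-rich, by the sum of the fibroblast genes Col1a1, Col3a1, Dcn and Lum. By their leading genes they are called here Ccn3/Rspo3, Actg2/Penk, Cldn11/Thbd and Inmt/Cyp26b1, and a dividing cluster. The labelled tissue is optic nerve, yet cells with its glial markers were a minority in both libraries. Cryba1 itself had 0 UMIs in every cell group of both libraries, so the genotype labels could not be checked at the transcript level.

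Stat3 was the most abundant of the 9 genes, and Socs3, Tyk2 and Stat5b were each under 10 CPM over all kept cells of either library. UMIs count 3′ ends and are not scaled by transcript length. The levels of Stat5a and Stat5b may be uncertain, since reads shared between the 2 genes could be lost in counting, which was not examined. Over all kept cells Stat3 reached 132.7 CPM in WT and 146 CPM in Nuc1. Jak1 followed at 69.1 and 100.3 CPM, Jak2 at 39.95 and 40.7 CPM, and Stat6 at 37.6 and 29.85 CPM. Stat2 stood at 29.5 and 32.04 CPM and Stat5a at 13.7 and 12.7 CPM. Socs3 stood at 8.19 and 3.09 CPM, Tyk2 at 6.45 and 5.69 CPM, and Stat5b at 4.08 and 4.13 CPM. Stat3 was found in 1601 of 1961 WT and 1555 of 1780 Nuc1 cells, whereas Socs3 was found in 243 and 98 cells. The most UMIs of Socs3 in any cell were 3.

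**Figure D1:**
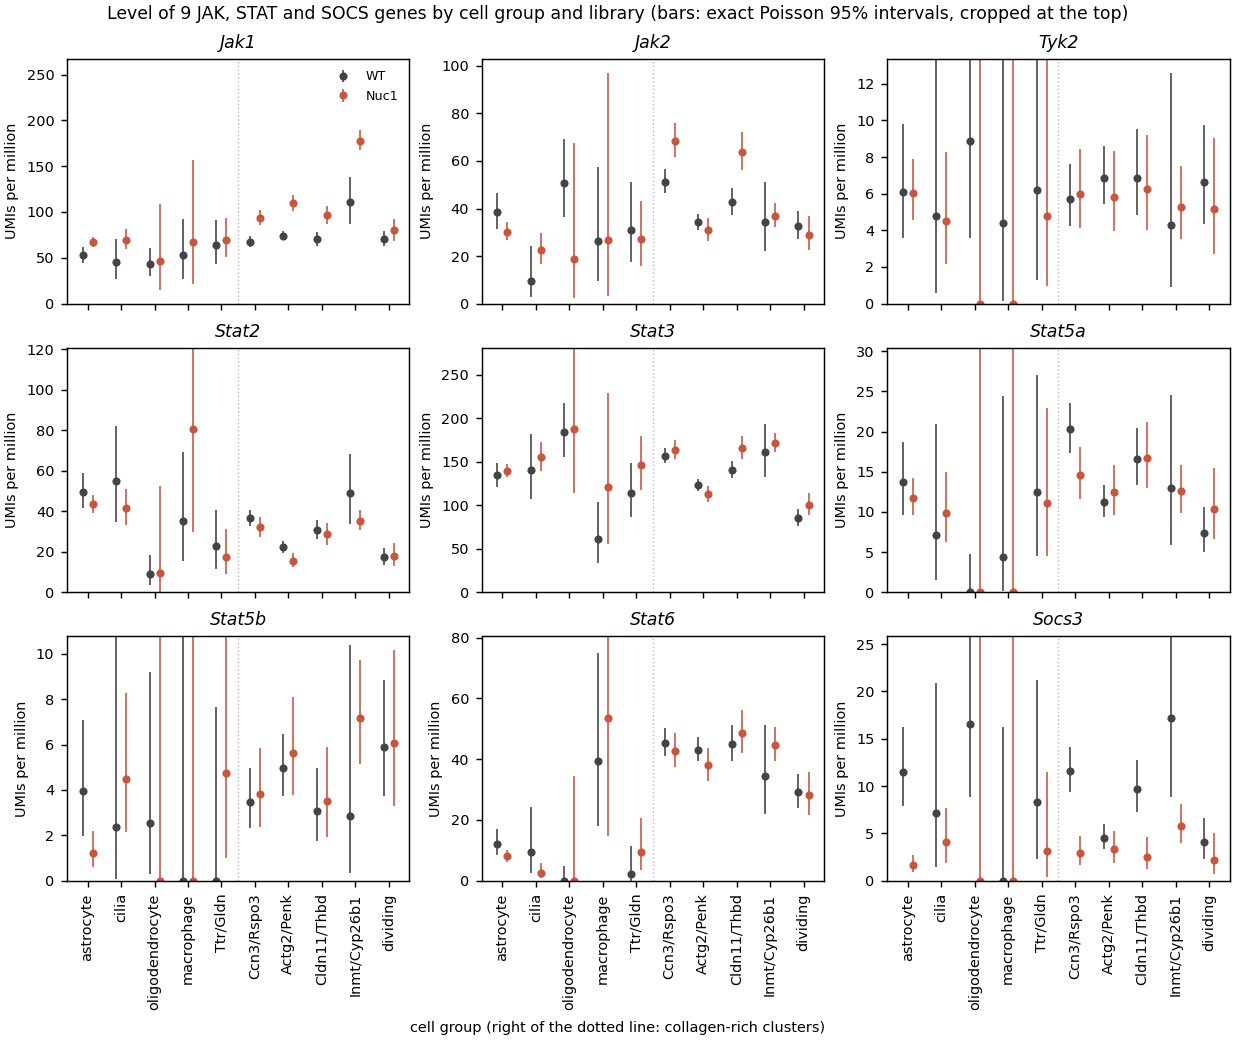
CPM (vertical axis, from 0) of the 9 genes in 10 cell groups (horizontal axis), with WT in grey, Nuc1 in red and exact Poisson 95% intervals as bars, some running off the top of a panel. Stat6 is high in collagen-rich clusters and macrophage-like cells and low in the glial groups and the Ttr/Gldn group. Socs3 is lower in Nuc1 than in WT in astrocyte-like cells and in all 5 collagen-rich clusters.

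Jak1, a kinase of the interferon, gp130 and common gamma chain receptors, was higher in the collagen-rich clusters than in astrocyte-like cells and highest in the Inmt/Cyp26b1 cluster. Across the 9 groups with at least 20 cells in a library, its level ran from 43.2 to 110 CPM in WT (median 67.5 CPM) and from 67.1 to 178 CPM in Nuc1 (median 79.95 CPM). In the Inmt/Cyp26b1 cluster it was 110 CPM in WT and 178 CPM in Nuc1, above the next cluster, Actg2/Penk (74.2 and 109.5 CPM), in both libraries. Of the 7 steps between neighbouring groups by mean level, only 2 had both libraries of the higher group above both of the lower group. The spread between the libraries includes genotype, so a step not separated in this way may still keep its order within each library. Actg2/Penk, for example, was above Cldn11/Thbd (70.2 and 96.4 CPM) in each library.

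Jak2, which serves homodimeric receptors such as those for growth hormone and leptin, was highest in the Ccn3/Rspo3 cluster (51.4 CPM in WT and 68.6 CPM in Nuc1). Over the groups with at least 20 cells in a library it ran from 26.3 to 51.4 CPM in WT and from 22.5 to 68.6 CPM in Nuc1. Motile-cilia-like cells were low, with 4 UMIs or 9.54 CPM in WT and 50 UMIs or 22.5 CPM in Nuc1, against 38.5 and 30.3 CPM in astrocyte-like cells. The WT value, from 15 cells, lies outside that range. On the log2 scale cilia-like over astrocyte-like cells was -2.01 in WT (95% interval -3.91 to -0.61) and -0.43 in Nuc1 (-0.90 to 0.01), so the Nuc1 interval reached 0. Tyk2, which pairs with Jak1 or Jak2 at interferon and interleukin-12 receptors, was low everywhere, with at most 8.90 CPM in WT and 6.25 CPM in Nuc1. None of its 7 neighbouring steps was separated in this way.

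Stat6, the transcription factor of interleukin-4 and interleukin-13 signalling, differed most of the 9 genes between astrocyte-like and collagen-rich cells, on the log2 scale as the mean of both libraries. In astrocyte-like cells it had 34 UMIs in WT (12.2 CPM) and 72 in Nuc1 (8.05 CPM). In all collagen-rich cells it had 1224 UMIs (42.04 CPM) and 946 UMIs (41.7 CPM). The collagen-rich level was thus 3.44-fold higher in WT and 5.18-fold higher in Nuc1, and all 5 collagen-rich clusters, between 28.1 and 48.7 CPM, stood above the astrocyte-like cells of either library. Macrophage-like cells, where the pathway is known for alternative activation, were on the collagen-rich side, with 9 UMIs (39.5 CPM) in WT and 4 UMIs (53.7 CPM) in Nuc1. Oligodendrocyte-lineage-like cells had 0 UMIs in both libraries, which allows up to 3.82 CPM in WT and up to 28.1 CPM in Nuc1 (3 counts over the group). The unnamed Ttr/Gldn group was also low, with 1 UMI (2.07 CPM) in WT and 6 UMIs (9.53 CPM) in Nuc1. The 4 genes Col1a1, Col3a1, Dcn and Lum summed to 505 CPM in WT and 424 CPM in Nuc1 astrocyte-like cells, against 11112 and 6668 CPM in collagen-rich cells. Without the astrocyte-like cells above 300 CPM of these genes, the mean log2 ratio of Stat6 over both libraries went from -2.08 to -2.58.

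Among all 11655 genes measured for this contrast, 16% were at least 2-fold lower in astrocyte-like than in collagen-rich cells in both libraries and 11.2% at least 2-fold higher. Of the 9 members, 1 was on the lower side, Stat6, and none on the higher side, so neither count exceeds its background share. Stat2, a transcription factor of type I interferon signalling, was the member most on the astrocyte-like side, at 49.6 CPM against 27.8 CPM in WT and 43.4 CPM against 27.0 CPM in Nuc1, or 1.79-fold and 1.61-fold higher. With at most 10% mitochondrial UMIs its mean log2 ratio of 0.76 became 0.29 (-0.05 to 0.64). Jak1 went the other way in both libraries, with log2 values of -0.44 in WT (-0.70 to -0.20) and -0.81 in Nuc1 (-0.94 to -0.68). Jak2 was near 0 in WT at -0.07 (-0.37 to 0.21) and lower in Nuc1 at -0.64 (-0.84 to -0.44).

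**Figure D2:**
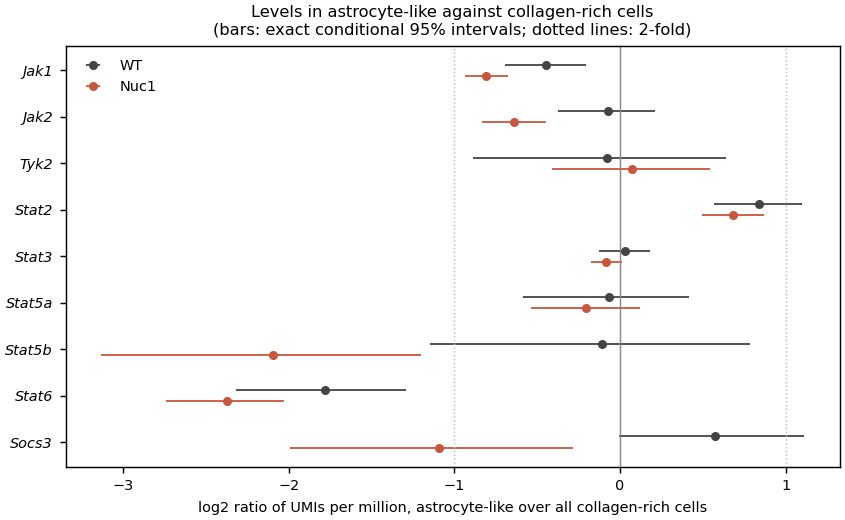
Log2 ratio of CPM in astrocyte-like over all collagen-rich cells (horizontal axis) for the 9 genes, in WT (grey) and Nuc1 (red), with exact conditional 95% intervals as bars and dotted lines at 2-fold. Stat6 lies at -1.78 and -2.37, past the dotted line in both libraries, and Stat2 lies at 0.84 and 0.68.

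Stat3, the main gp130 effector, differed little between those classes: 135 CPM in astrocyte-like against 132 CPM in collagen-rich WT cells, and 140 against 148 CPM in Nuc1. It was lowest in the dividing collagen-rich cluster among the groups with more than 100 WT cells, at 85.4 CPM in WT and 101 CPM in Nuc1. Oligodendrocyte-lineage-like cells carried the highest level of WT, 184 CPM from 145 UMIs, while their Stat2 was at 8.90 CPM from 7 UMIs. Against astrocyte-like cells of WT, that is 5.58-fold less Stat2 and 1.37-fold more Stat3. Stat5a and Stat5b encode near-identical transcription factors of growth hormone and prolactin signalling, and reads shared between such paralogs could be split or lost in counting. Stat5a ran from 0 to 20.3 CPM over the WT groups and from 0 to 16.7 CPM over the Nuc1 groups. Stat5b never exceeded 5.88 CPM in WT or 7.18 CPM in Nuc1.

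The second question was how the members differ between WT and Nuc1 within a cell group. In astrocyte-like cells the median log2 ratio of all genes with at least 100 UMIs was -0.12, and it was 0.02 in all collagen-rich cells. Astrocyte-like cells had 20 or more UMIs of 10600 genes, of which 16.8% were at least 1.5-fold lower in Nuc1 and 9.02% at least 1.5-fold higher. Of the 9 members 3 were lower (Socs3, Stat5b and Stat6) and none was higher. With 9 genes, a count of 3 stands above the background share but rests on small counts: Stat5b had 11 UMIs in each library, and the interval of Stat6 reached 0. When each cell was thinned to 5000 UMIs, Socs3 and Stat5b had under 20 UMIs, Stat6 was lower and Jak1 higher, beside 17.5% of all genes lower and 12.8% higher. In all collagen-rich cells 10.6% of 12381 genes were lower and 13% higher past the same fold, and the members past it were Socs3, lower, and Jak1, higher.

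Socs3, which binds gp130-type receptors and their JAKs and blocks them, had the largest difference of the 9. In astrocyte-like cells it had 32 UMIs in 106 WT cells (11.5 CPM) and 15 UMIs in 349 Nuc1 cells (1.68 CPM). That is 6.86-fold less in Nuc1, a log2 ratio of -2.78 (-3.77 to -1.85). In all collagen-rich cells it had 225 UMIs in WT (7.73 CPM) and 81 in Nuc1 (3.57 CPM), 2.16-fold less, a log2 ratio of -1.11 (-1.50 to -0.74). In astrocyte-like cells and in each of the 5 collagen-rich clusters, 6 groups in all, the Nuc1 value was below the WT value, as it was by any amount for 14.7% of 8657 genes with enough UMIs in all 6. Of the 9 members only Socs3 was, so the count does not exceed that share.

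By cluster, Socs3 was 11.6 CPM in WT and 2.91 CPM in Nuc1 in Ccn3/Rspo3, 9.73 and 2.50 CPM in Cldn11/Thbd, and 17.2 and 5.78 CPM in Inmt/Cyp26b1. It was 4.09 and 2.16 CPM in the dividing cluster, from 16 and 5 UMIs, with a log2 interval from -2.72 to 0.59 that held 0. In Actg2/Penk the difference was smallest, 4.50 against 3.31 CPM, 1.36-fold, with a log2 interval from -1.33 to 0.38. Among the same 8657 genes, 1.58% were lower past 1.5-fold in each group and 0.612% higher in each, and no member met either condition. Macrophage-like cells had 0 UMIs of Socs3, which allows up to 13.2 CPM in WT and 40.2 CPM in Nuc1 (3 counts over the group).

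**Figure D3:**
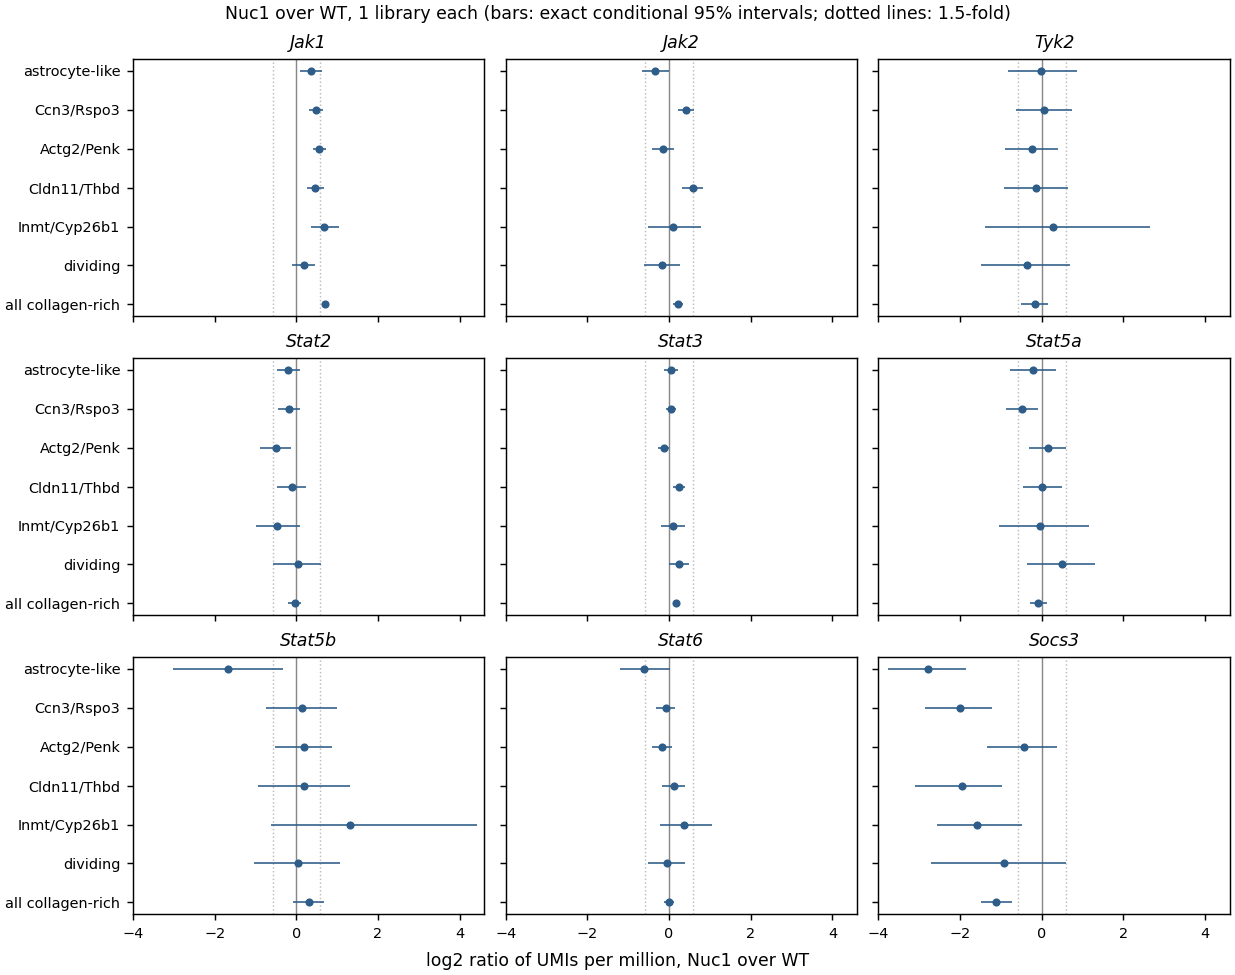
Log2 ratio of CPM, Nuc1 over WT (horizontal axis), for each gene in astrocyte-like cells, the 5 collagen-rich clusters and all collagen-rich cells, with exact conditional 95% intervals as bars and dotted lines at 1.5-fold. Socs3 lies left of 0 in every row and Jak1 right of 0, while Jak2 lies at -0.34 in astrocyte-like cells and at 0.58 in Cldn11/Thbd cells.

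Socs3 is an immediate early gene. Most of the listed early genes that tissue dissociation is known to induce were also lower in Nuc1 past 1.5-fold in astrocyte-like and collagen-rich cells. Of 18 listed dissociation response genes 16 were in the files. Summed, they stood at 5174 CPM in WT and 2370 CPM in Nuc1 in astrocyte-like cells, with 13 of 16 lower past 1.5-fold, 1 higher (Jund) and Fos the most abundant. The lowest ratios were those of Nr4a1 (116 and 22.03 CPM) and Klf4 (80.6 and 22.3 CPM), and the highest those of Jund (79.5 and 124 CPM) and Hspa1b (18.7 and 19.2 CPM). In all collagen-rich cells the sum was 8106 CPM in WT and 4470 CPM in Nuc1, with 10 of 16 lower past 1.5-fold, 1 higher (Hspa1b) and Egr1 the most abundant (by the mean of the log2 ratios of the 5 clusters 11 were lower and none higher, with Hspa1b at 0.45), and none of the 16 was at 0 in either class. Of all measured genes 16.8% were lower and 9.02% higher past that fold in astrocyte-like cells, and 10.6% and 13% in collagen-rich cells. In motile-cilia-like cells, 15 in WT and 105 in Nuc1, the sum was 4506 and 3581 CPM. In macrophage-like cells, 22 in each library, it was 1852 and 2025 CPM, but their median depth was 8556 UMIs in WT and 1808 in Nuc1, their median mitochondrial share 7.12% and 0.27%, and their macrophage markers summed to 28027 and 10649 CPM. Division markers moved as well: 12 of 12 were detected in astrocyte-like cells, Cenpf the most abundant, and their sum was 498 CPM in WT and 95.1 CPM in Nuc1. The part of dissociation genes or division markers in the Socs3 difference or in those of the pathway lists was not tested.

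Within each library, Socs3 was higher in collagen-rich cells with more of these transcripts, while in astrocyte-like cells the intervals overlapped. Cells of a class were ordered by the summed list and split into 3 parts of equal size. In collagen-rich WT cells the lowest part had 2.68 CPM of Socs3, the middle part 7.66 CPM and the highest part 14.7 CPM. In collagen-rich Nuc1 cells the values were 1.40, 3.12 and 6.82 CPM. Astrocyte-like WT cells had 6.27, 13.3 and 15.4 CPM from 6, 13 and 13 UMIs, and the Nuc1 cells 1.19, 1.68 and 2.31 CPM from 4, 5 and 6 UMIs, with overlapping intervals in each. The list itself summed to 4346, 8490 and 12809 CPM in the parts of collagen-rich WT cells and to 2281, 4325 and 7407 CPM in those of Nuc1 cells. In astrocyte-like cells it summed to 2452, 5162 and 8268 CPM in WT and to 1032, 2127 and 4380 CPM in Nuc1. The parts of collagen-rich cells pool 5 clusters, whose mix may differ between parts. In WT the list summed to 9740 CPM in Ccn3/Rspo3 and 5665 CPM in the dividing cluster, where Socs3 was 11.6 and 4.09 CPM. The part of this mix was not tested.

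**Figure D4:**
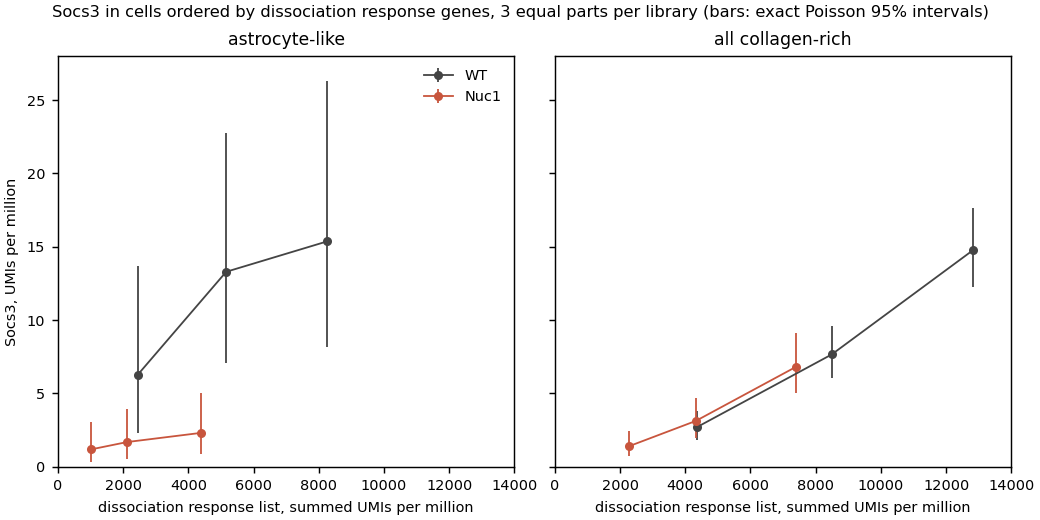
Socs3 level in CPM (vertical axis, from 0) against the summed level of the dissociation response list (horizontal axis, from 0) in 3 equal parts of the cells, in astrocyte-like (left) and all collagen-rich cells (right), WT in grey and Nuc1 in red, with exact Poisson 95% intervals as bars. In collagen-rich cells both libraries rise with the list, from 2.68 to 14.7 in WT and from 1.40 to 6.82 in Nuc1.

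Jak1 was higher in Nuc1 in astrocyte-like cells and in all 5 collagen-rich clusters. Of the 8657 genes 10.7% were higher by any amount in all 6 groups, and Jak1 was the only 1 of the 9 members, near that share. In astrocyte-like cells it was 52.9 CPM in WT and 67.2 CPM in Nuc1, or 0.35 on the log2 scale (0.08 to 0.62). Among collagen-rich clusters it was 67.5 and 93.7 CPM in Ccn3/Rspo3, 74.2 and 109.5 CPM in Actg2/Penk, and 70.2 and 96.4 CPM in Cldn11/Thbd. The dividing cluster had 70.8 and 79.95 CPM, with an interval that reached 0. Only the Inmt/Cyp26b1 cluster was past 1.5-fold by itself, with a log2 ratio of 0.69 (0.35 to 1.04). Over all collagen-rich cells the log2 ratio was 0.71 (0.63 to 0.79), or 1.63-fold, but the cluster with the highest Jak1 held 53 WT and 368 Nuc1 cells, and the mean of the 5 cluster values was 0.47, which is not past 1.5-fold.

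Jak2 was lower in Nuc1 astrocyte-like cells and higher in Nuc1 cells of 2 collagen-rich clusters. In astrocyte-like cells it had 107 UMIs in WT (38.5 CPM) and 271 in Nuc1 (30.3 CPM), 1.27-fold less, or -0.34 on the log2 scale (-0.67 to -0.01). Relative to the median of all genes in that group the ratio was -0.23. It was negative under all 11 alternative settings, but its interval reached 0 under 7 of them. It was 51.4 and 68.6 CPM in Ccn3/Rspo3 (0.42, 0.21 to 0.62) and 42.7 and 63.7 CPM in Cldn11/Thbd (0.58, 0.31 to 0.84). In the Actg2/Penk, Inmt/Cyp26b1 and dividing clusters the intervals held 0. The difference between these ratios was not tested.

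Of the other members, Stat5b and Stat6 were lower past 1.5-fold in astrocyte-like cells, from small counts. Stat3, Stat2, Stat5a and Tyk2 differed less there than Jak1 or Jak2. Stat3 was 135 CPM in WT and 140 CPM in Nuc1 in astrocyte-like cells, a log2 ratio of 0.05 (-0.11 to 0.22), the narrowest interval of the 9 there. After each cell was thinned to 5000 UMIs, Stat3 was found in 54.3% of 105 WT astrocyte-like cells (exact binomial interval 44.3 to 64.04%) and in 48.8% of 344 Nuc1 cells (43.4 to 54.3%), and 1 WT and 5 Nuc1 cells were too shallow to enter. In a separate random thinning of these cells to 5000 UMIs the log2 ratio of Stat3 CPM was 0.39, higher in Nuc1 and above the interval before thinning. The shares and this ratio come from different draws, so they are not to be set against each other. Without thinning the shares were 92.5% and 90.8%, at median depths of 25874 and 24305 UMIs. No cell group here is known to lack Stat3, so these shares have no background to be read against. Stat2 stood at -0.19 (-0.48 to 0.10), Stat5a at -0.22 (-0.77 to 0.36) and Tyk2 at -0.02 (-0.83 to 0.86) in astrocyte-like cells. Stat6 was 12.2 CPM in WT and 8.05 CPM in Nuc1 there, at -0.60 (-1.21 to 0.03), while over all collagen-rich cells it was -0.01 (-0.13 to 0.11). Stat5b, at 3.96 and 1.23 CPM, had -1.69 (-3.03 to -0.34) in astrocyte-like cells and 0.30 (-0.07 to 0.68) in collagen-rich cells. With at most 10% mitochondrial UMIs the astrocyte-like value of Stat5b reversed to 0.99 (-1.71 to 6.39).

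Of 8 other JAK and SOCS family genes, Cish, a feedback inhibitor induced by STAT5, was lower in Nuc1 past 1.5-fold in collagen-rich cells. In all collagen-rich cells Cish had 761 UMIs in WT (26.1 CPM) and 330 in Nuc1 (14.6 CPM), 1.80-fold less, a log2 ratio of -0.84 (-1.04 to -0.66). The mean of its 5 cluster values was -0.90. In astrocyte-like cells it had 6 and 22 UMIs, 2.16 and 2.46 CPM, and the interval of its log2 ratio, -1.16 to 1.78, also held the collagen-rich value. Socs1, with 18.5 and 15.8 CPM, had a collagen-rich log2 ratio of -0.23 (-0.43 to -0.04), and Socs2, with 11.02 and 16.5 CPM, stood at 0.58 (0.36 to 0.80), with a mean of the cluster values of 0.43. In astrocyte-like cells Socs2 was lower, at 14.4 and 9.06 CPM, and Socs1 stood at 4.32 and 3.35 CPM. Jak3, the kinase of the common gamma chain receptors, was higher in both classes, at 0.61 (-0.12 to 1.40) and 0.68 (0.43 to 0.93), and Socs5 was 22.7 and 26.6 CPM in astrocyte-like cells. Past 1.5-fold, 1 of the 7 with enough UMIs was lower in astrocyte-like cells and 1 higher, and 2 of 8 were lower and 1 higher in collagen-rich cells. By the mean of the cluster values 1 of 7 was lower there and 1 higher.

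**Figure D5:**
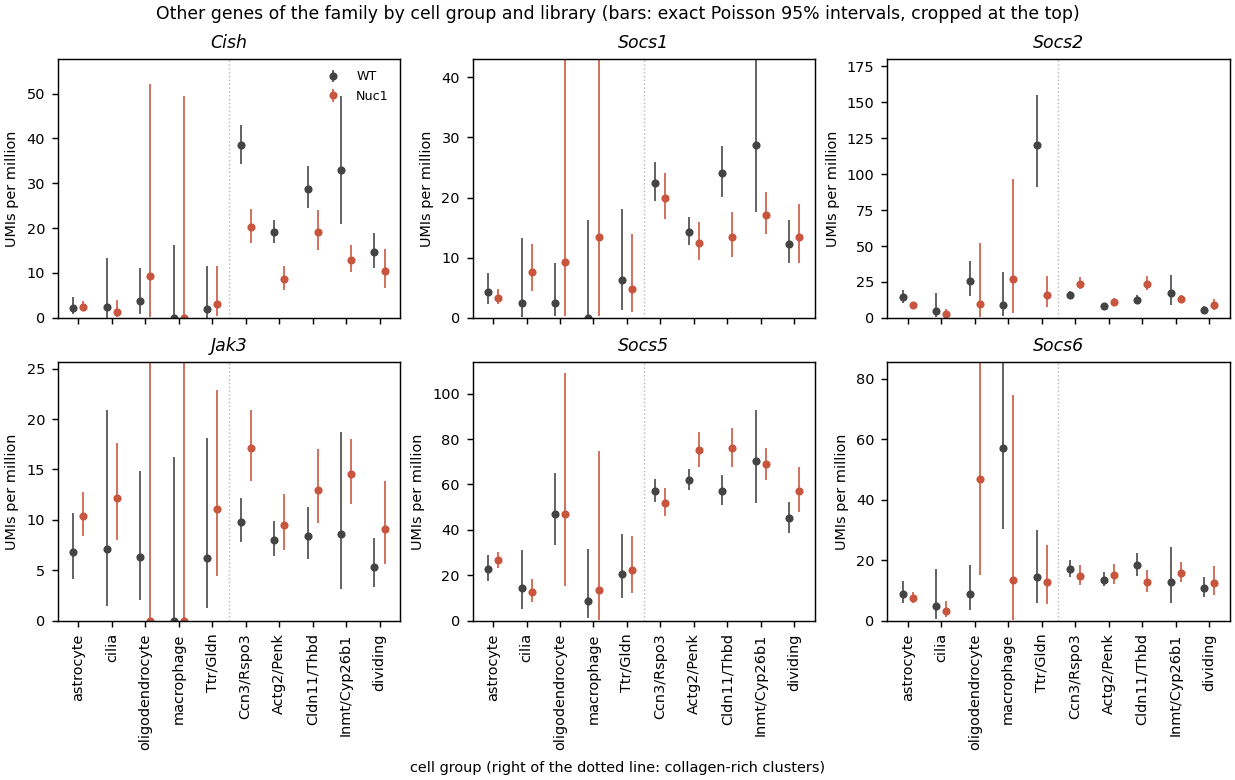
CPM (vertical axis, from 0) of 6 other genes of the family in the 10 cell groups (horizontal axis), WT in grey and Nuc1 in red, with exact Poisson 95% intervals as bars, some running off the top of a panel. Cish is high in collagen-rich clusters and lower in Nuc1 there (26.1 against 14.6 over all of them), and it is near 2 in astrocyte-like cells of both libraries.

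The counts of the pathway lists past 1.5-fold stand beside 16.8% of all measured genes lower and 9.02% higher in astrocyte-like cells, and 10.6% lower and 13% higher in collagen-rich cells. Pooled collagen-rich values also carry the mix of clusters, since Inmt/Cyp26b1 held 53 of 1961 WT and 368 of 1780 Nuc1 cells, and Actg2/Penk 608 and 232. Means of the 5 cluster values, a setting extended to these lists after their values were seen, are therefore given where they change a count or a median by more than 1.5 times.

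Upstream of the members, of 8 gp130 ligands 3 had enough UMIs in astrocyte-like cells, with a median log2 ratio of -0.39, and 1 was past 1.5-fold. Cntf, a survival factor of glia, was the most abundant at 121 CPM in WT and 92.3 CPM in Nuc1. Ctf1 was 31.3 and 23.5 CPM, and Clcf1 rose from 2.16 to 6.49 CPM, from 6 and 58 UMIs. In collagen-rich cells 5 of the 8 ligands were measured and their median was 0.05, with 2 lower and 1 higher. By the mean of the cluster values, which 3 of the 5 had, the median was 0.22 and none was past the fold. Il6, named here after its values were seen, had 100 UMIs in WT and 1 in Nuc1 there, 3.43 against 0.04 CPM, a log2 ratio of -6.28 (-11.6 to -3.77).

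Of 20 cytokine receptors 13 were measured in astrocyte-like cells, with a median of -0.03, 1 lower and 1 higher past 1.5-fold. The lower was Il6r (3.60 and 1.68 CPM) and the higher was Lepr, the leptin receptor, with 10 UMIs in WT (3.60 CPM) and 100 in Nuc1 (11.2 CPM), a log2 ratio of 1.64 (0.70 to 2.74). Ifnar1 was 53.2 and 37.7 CPM and Il10rb 19.8 and 27.1 CPM. In collagen-rich cells 17 were measured, with a median of 0.54, 2 lower and 5 higher, among them Lepr (75.1 and 159 CPM, 1.08 on the log2 scale). By the mean of the cluster values, which 14 of the 17 had, the median was 0.34, 1 was lower and 1 higher, and Lepr stood at 0.56, which is not past the fold. Il6st, the gene of gp130, was also chosen after its values were seen. It was 28.4 and 26.7 CPM in astrocyte-like cells, a log2 ratio of -0.09 (-0.46 to 0.30), and 38.7 and 67.95 CPM in collagen-rich cells, 0.81 (0.70 to 0.93), with a mean of the cluster values of 0.54.

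Among 17 inhibitors and phosphatases, 15 were measured in astrocyte-like cells, with a median of -0.08, 3 lower and none higher. Pias2, a STAT inhibitor, was 12.6 and 6.82 CPM, while Cbl, from 4 and 19 UMIs, and Ptpn11, at 101 and 97.8 CPM, were not past the fold. In collagen-rich cells all 17 were measured, with a median of 0.07, 2 lower and 1 higher, or a median of 0.03 with 1 lower and 1 higher of 15 by the mean of the cluster values.

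The target lists did not all go 1 way. Of 25 STAT3 targets 20 were measured in astrocyte-like cells, with a median of -0.59, 10 lower and 2 higher. Vegfa, an angiogenic factor, was 33.5 CPM in WT and 7.49 CPM in Nuc1, and Lcn2 11.9 and 2.80 CPM. Fos (1011 and 406 CPM), Cebpb (165 and 69.5 CPM), Ccnd1 (317 and 187 CPM) and Hif1a (121 and 64.5 CPM) were also lower, and Fos is in the dissociation list too. A2m rose from 53.95 to 99.6 CPM and Bcl2l1 from 31.3 to 46.97 CPM. Gfap, the astrocyte filament gene, was 6946 CPM in WT and 9594 CPM in Nuc1, a log2 ratio of 0.47 (0.44 to 0.49), and Vim, the most abundant, was 23880 and 22756 CPM. Cebpd was 509 and 518 CPM, Timp1 408 and 322 CPM, and Junb, also in the dissociation list, 527 and 392 CPM. In collagen-rich cells 24 were measured, with a median of -0.31, 6 lower and 3 higher. By the mean of the cluster values, which 21 had, the median was -0.16, with 8 lower and 3 higher.

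Of 6 STAT5 targets 4 were measured in astrocyte-like cells (median -0.49, 2 lower, none higher) and 5 in collagen-rich cells (median -0.57, 2 lower, none higher). Bcl6, a repressor, was lower in both, at 21.2 and 9.73 CPM and at 10.2 and 3.66 CPM. Igf1 was 11.5 and 9.28 CPM in astrocyte-like cells. Of 17 interferon and STAT2 targets 15 were measured in each class, with a median of -0.35 and 5 lower against 2 higher in astrocyte-like cells, and a median of 0.32 and 1 lower against 6 higher in collagen-rich cells. Irf1 was lower in both classes (24.1 and 9.51 CPM, then 45.3 and 29.7 CPM) and Cxcl10, an interferon-induced chemokine, higher in both (2.88 and 14.7 CPM, then 19.8 and 54.5 CPM). By the mean of the cluster values 3 of the 15 were higher and 1 lower in collagen-rich cells (median 0.10), and Cxcl10 stood at 0.51, not past the fold. Ifitm3, the most abundant of the list, was 1352 and 1331 CPM in astrocyte-like cells, Ifi27 818 and 782 CPM, and Mx2 111.5 and 89.5 CPM. Oas1a was 14.03 and 6.26 CPM and Rsad2 4.68 and 11.97 CPM in astrocyte-like cells. Of 6 STAT6 targets only Il4r and Socs1 were measured in astrocyte-like cells, neither past the fold (median -0.20). Of 3 in collagen-rich cells 1 was lower (median -0.23), and none of 2 by the mean of the cluster values (median -0.01).

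The genes whose level followed each member most closely were ranked over 18 points, the cell groups of each library with at least 20 cells, among 7931 genes. The points share libraries and cell groups, so the correlations are descriptions. Socs3 was followed most closely by Fos (Pearson's r = 0.908), Jun (0.887) and Usp33 (0.859), the first 2 of them in the dissociation list. Stat6 was followed by Dab2 (0.962), Fxyd5 (0.954) and Fhl3 (0.948), and Jak1 by Scn4b (0.922), Cemip (0.890) and Gjb2 (0.888), of which Cemip and Gjb2 lead the Inmt/Cyp26b1 cluster. Jak2 was followed by Dennd4a (0.837), Slc26a2 (0.833) and Efna1 (0.828), and Stat2 by Mink1 (0.820), Sqstm1 (0.820) and Ephx2 (0.810). The closest to Stat3 were Zfyve27 (0.906), Mau2 (0.906) and Rbsn (0.888), and to Stat5a Smo (0.945), Prxl2a (0.931) and Dnase1l1 (0.924). For Tyk2 (Slc35b2, 0.953, Cstf2t, 0.948, and Sike1, 0.948) and Stat5b (Sf3b4, 0.874, Gxylt1, 0.865, and Gmppb, 0.864) the levels were within a few CPM of 0 in most groups.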

How the data were processed

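The deposited matrices hold UMI counts per gene and cell, 1 matrix per library, made by the authors with tools that the submitters' processing notes list as Cell Ranger 3.1.0, STAR 2.7 and Seurat 3.1.0 and 3.1.1. The genome build of the counts was not given in the sources used here. Barcodes had to show 500 genes or more and no more than 20% of UMIs from mitochondrial genes, and doublet calls by Scrublet in scanpy 1.11.5 (7 WT and 13 Nuc1 cells) were left out. Libraries were integrated and clustered in Seurat 5.3.0 on R 4.3.3 (2000 variable genes, 30 components, resolution 0.5). A cluster took a cell type name from at least 3 listed markers among its 10 leading genes. Clusters at 40% or more of the highest cluster's sum of 4 fibroblast genes (Col1a1, Col3a1, Dcn, Lum) were called collagen-rich. This threshold was set after seeing the data, and the Ttr/Gldn cluster, at 2617 CPM, stayed out.

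Counts were summed per cell group and library and divided by the group's total UMIs. Intervals are exact at 95%: Poisson for levels, conditional for ratios, Clopper-Pearson for shares. A gene was measured in a group with at least 20 UMIs over both libraries. The members, the pathway lists and the dissociation list were chosen with earlier results of these data known. Named genes were all members, from each list the 2 highest and 2 lowest ratios in astrocyte-like cells and abundant members (at least 100 CPM there), and the 3 genes closest to each member, with exceptions stated. Of the dissociation list only the extremes and the most abundant genes are given. For Socs3, a background rule of 5 of 6 groups was tried after its values were seen and is not used. Neighbouring groups count as separated when the order holds in both libraries without overlap. Alternatives used other filters, clusterings, depths and scalings (TMM in edgeR 4.0.16).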

Additional observations from a re-analysis of the deposited data

Results flagged for a closer look

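Jak2 moved in opposite directions in astrocyte-like and in 2 groups of collagen-rich cells. On the log2 scale, Nuc1 against WT stood at -0.34 in astrocyte-like cells, 0.42 in Ccn3/Rspo3 cells and 0.58 in Cldn11/Thbd cells, and the counting intervals lay on opposite sides of 0. The difference was not tested, since each genotype has 1 library. The astrocyte-like interval ended at -0.01.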

How the results depend on the processing

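No paired analysis was possible because WT and Nuc1 had 1 library each. Of 198 log2 ratios of Nuc1 over WT recomputed for the 9 members, 186 stayed within the counting interval of the reported value, 11 left it and 1, whose reported interval left out 0, reversed. Sign changes where the reported interval included 0 numbered 11, in Tyk2, Stat2, Stat5a and Stat6, the farthest Stat2 in astrocyte-like cells, from -0.19 to 0.40 with at most 10% mitochondrial UMIs. Stat5b in astrocyte-like cells reversed to 0.99 with at most 10% mitochondrial UMIs, which left 28 of the 106 WT cells. Of 81 levels of astrocyte-like over collagen-rich cells, 71 stayed within and 10 left. Socs3 stayed negative under all 11 settings in each class, from -2.91 to -2.20 in astrocyte-like and from -1.38 to -0.84 in collagen-rich cells. Collagen-rich Jak1 was 0.85 when cells were thinned to 5000 UMIs and 0.47 with equal weight for the 5 clusters. Stat6 in astrocyte-like over collagen-rich cells was -2.92 without clustering and -2.58 without astrocyte-like cells rich in Col1a1, Col3a1, Dcn and Lum. Stat2 there went from 0.76 to 0.58 without clustering, 0.55 after thinning and 0.29 with at most 10% mitochondrial UMIs. The 3 members lower in Nuc1 astrocyte-like cells became 1, Stat6, with a minimum of 100 UMIs (11.9% of all genes lower) and 1, Stat6, after thinning (17.5%), since Socs3 and Stat5b then had too few UMIs. After thinning 1 was also higher, Jak1 at 0.87. This value came from 1 random draw with 140 UMIs over both libraries, against 748 UMIs and 0.35 without thinning, and its cause was not tested. TMM scaling moved astrocyte-like ratios up by 0.12, and Stat6 was then not past 1.5-fold. Nor was it with the median of all genes at 0, where it stood at -0.49. Socs3 and Stat5b stayed past the fold under both scalings.

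Shares of astrocyte-like cells with a UMI follow depth. At 5000 UMIs they were 20.95% (WT) and 29.1% (Nuc1) for Jak1 and 16.2% and 12.2% for Jak2. At 10000 UMIs they were 38.5% and 45.9% for Jak1, 33.7% and 26.0% for Jak2, and 67.3% and 72.5% for Stat3. Without thinning they were 77.4% and 74.8% for Jak1, 55.7% and 46.1% for Jak2, and 92.5% and 90.8% for Stat3. The order of WT and Nuc1 was not the same at every depth for Jak1 and Stat3, but each thinned depth was 1 random draw. At 10000 UMIs the exact binomial intervals of the libraries overlapped for both genes. They were 29.1 to 48.5% (WT) and 40.4 to 51.4% (Nuc1) for Jak1, and 57.4 to 76.2% and 67.3 to 77.2% for Stat3. Socs3 stayed higher in the highest than in the lowest part by dissociation genes when Fos, Junb and Hspa1b were left out of the list. In astrocyte-like cells the intervals of the parts overlapped in both libraries. The middle part was highest in Nuc1 there, with 0.88, 2.44 and 1.87 CPM from 3, 7 and 5 UMIs. Depth limits Tyk2, Stat5a, Stat5b and Socs3 most, and cell groups under 60 cells for all 9 members.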

Other observations

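Socs2, a feedback inhibitor of growth hormone signalling, had its highest level in the small Ttr/Gldn group of the WT library. It had 58 UMIs in 23 WT cells (120 CPM) and 10 UMIs in 31 Nuc1 cells (15.9 CPM) there, a log2 ratio of -2.92. This value was chosen after it was seen and has no replicate check.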
